A study of Homo sapiens with 31 samples.

Results

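The ZNF genes are human genes whose official symbol is ZNF followed by a number, and all interactions whose gene symbol matched that pattern were taken as members. They held 605 of the 21961 miRNA–target interactions assigned to a gene symbol (2.75%), at 217 of 7069 gene symbols, in a table of 32712 interactions. Each interaction is a miRNA together with a 75-nucleotide target region. It was placed from chimeras in which the miRNA had been ligated to the RNA fragment that Argonaute (AGO) held beside it. The paper states that target regions sometimes reached past what was sequenced, so a seed match can lie where no read does. N counts the individually cloned chimeric reads behind an interaction. The libraries came from Huh-7.5 cells, an established human hepatoma line, after ultraviolet cross-linking and purification of AGO. Standard AGO-CLIP gave 19 of the 31 libraries, 7 of cells with no treatment named, 4 of mock-treated cells and 4 each of cells given the miR-122 inhibitors LNA-122 and miravirsen. CLEAR-CLIP, which seeks to enrich chimeras, gave 12, with 2 in each of 6 groups. These were HSPC117 siRNA, cells with no HSPC117 treatment and HSPC117 over-expression, all at low RNAse A and without T4 RNA ligase, cells at low RNAse A with T4 RNA ligase, and HSPC117 over-expression without it at high RNAse A or with RNAse T1. HSPC117 is a cellular RNA ligase. The table pools all libraries, so treatments could not be compared and no error between libraries can be given. Intervals on differences between ZNF genes and other genes are 95% intervals that treat the gene as the unit of sampling, and intervals on a single share are 95% Wilson intervals that cover counting error only. Genes that are copies of each other can share target sequence. Neither the intervals on differences nor the tests across miRNAs allow for this, so both may understate the uncertainty.

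Most ZNF genes encode proteins built from C2H2 zinc fingers, small zinc-binding units that recognise DNA and that stand in tandem, each joined to the next by a short conserved linker. A finger with its linker is 28 residues in its usual form, which is 84 bases of coding sequence, and many members also carry a KRAB domain through which they repress transcription. The family expanded by gene duplication in large clusters on chromosome 19. miRNAs guide AGO to RNA mainly through their seed, positions 2 to 8 counted from the 5′ end, and pairing farther along the miRNA is called auxiliary.

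miR-23a-3p was the miRNA ligated most often to ZNF genes, and its sequence is shown beside that of its paralogue miR-23b-3p, which has the same seed. miR-27a-3p is transcribed from the same cluster as miR-23a, and interactions of miR-181b-5p, miR-17-5p and miR-16-5p at ZNF genes are also described below. Seeds are in capitals, and all sequences are those of RefSeq (GRCh38.p14), in which 93 of the 116 miRNAs found at ZNF genes were matched by name.
miR-23a-3p: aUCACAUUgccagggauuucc
miR-23b-3p: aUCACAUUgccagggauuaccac
miR-27a-3p: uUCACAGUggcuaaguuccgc
miR-181b-5p: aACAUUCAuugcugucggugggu
miR-17-5p: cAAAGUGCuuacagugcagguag
miR-16-5p: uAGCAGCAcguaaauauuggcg
An 8mer match to the miR-23a-3p seed reads AAUGUGAA in the target, which is the complement of the seed followed by an A that faces position 1.

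All 217 ZNF symbols were matched to RefSeq by gene ID. Of these, 5 have another symbol there, among them ZNF720 (now KRABD5), and 5 are not protein coding, such as the pseudogene ZNF826P. RefSeq lists 517 protein-coding genes of this name, and 211 of those had an interaction. A single interaction was found at 100 of the 217 symbols, 2 to 4 at 78, and 5 or more at 39. The median was 2 interactions for ZNF genes and 2 for other genes. The 605 interactions rested on 695 chimeric reads, since N was 1 for 560 of them. Chromosome 19 held 249 of the interactions (41.2%), at 98 genes, and chromosome 7 held 71 at 19 genes. Of the interactions of other genes, 2.30% lay on chromosome 19.

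ZNF91, a KRAB zinc finger protein that represses SVA retrotransposons, had the most interactions, 23 with 18 miRNAs, of which 8 lay in the coding sequence (CDS), 8 in the 3′-UTR and 7 in introns. It had only 1 with miR-23a-3p. ZNF638, a nucleic-acid-binding zinc finger protein, followed with 14, of which 10 were intronic, and ZNF292 with 13, of which 9 were intronic, each with 13 or fewer miRNAs. ZNF92 on chromosome 7 also had 13 but differed in kind, since 11 lay in the CDS and 7 of the 13 were with miR-23a-3p. ZNF117 had 11 interactions with 4 miRNAs, 5 of them with miR-23a-3p, and ZNF518A had 11 with 9 miRNAs, 2 of them with miR-23a-3p. ZNF516, a transcription factor known in mouse for its part in brown fat, had 10 with 10 different miRNAs and none with miR-23a-3p. ZNF367 also had 10, of which none lay in the CDS alone. ZNF253, ZNF680 and ZNF708 had 9 each, and those of ZNF708 all lay in the CDS, 5 of them with miR-23a-3p. Among the most targeted members, some were therefore ligated to many miRNAs in introns and others repeatedly to miR-23a-3p in the CDS. ZNF91, with its interactions spread over regions, was of neither kind.

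**Figure D1:**
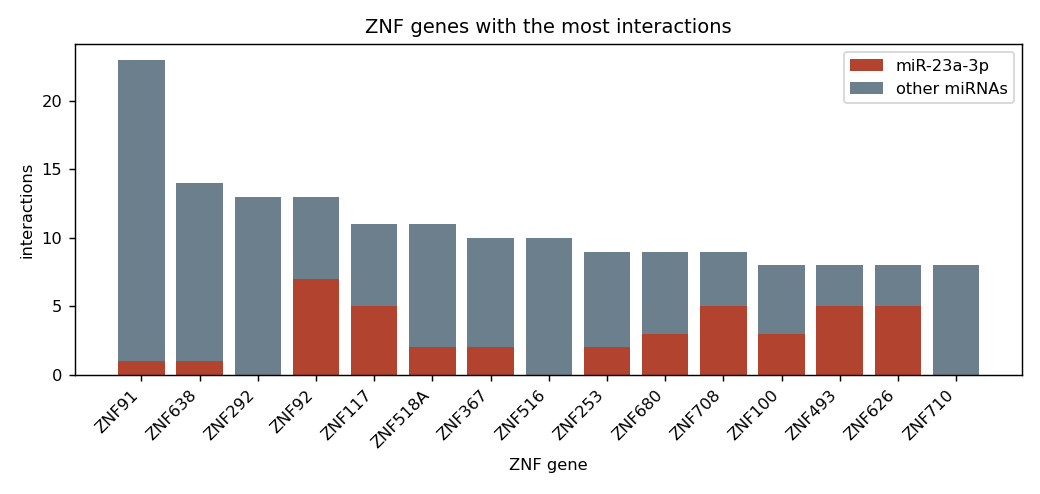
Number of interactions (y axis) at the 15 ZNF genes with the most (x axis), divided into those with miR-23a-3p and those with other miRNAs. ZNF91 has 23 interactions and 1 with miR-23a-3p, while ZNF92 has 7 of 13 with it.

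ZNF interactions lay in coding sequence about as often as in introns, unlike those of other genes. The CDS held 212 of 605 ZNF interactions (35.0%, interval 31.3 to 38.9%) against 17.8% of the 21356 interactions of other genes, a difference of 17.2 percentage points (SE 2.69, interval 11.95 to 22.5). Introns held 223 (36.9%) against 56.2%, a difference of -19.3 points (interval -25.04 to -13.6). The 3′-UTR held 105 (17.4%) against 17.7%, and the interval of the difference, -4.27 to 3.53 points, included 0. The remaining 65 carried labels of several regions, of the 5′-UTR or of unclassified exons. Without miR-23a-3p and miR-23b-3p, 29.4% of 503 ZNF interactions lay in the CDS against 17.9%, a difference of 11.6 points (interval 7.03 to 16.1). Over interactions with N of at least 2 alone, the CDS difference was 32.8 points (interval 15.4 to 50.3). The CDS share was thus higher with and without the miR-23 pair. The lengths of coding sequence, 3′-UTRs and introns were not compared, and their part in these shares was not tested.

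The CDS share of ZNF genes was also higher than that of related zinc finger genes. At ZFP, ZBTB, ZSCAN and ZKSCAN genes, which encode relatives of the ZNF proteins, 27 of 150 interactions lay in the CDS (18%), 17.04 points below ZNF genes (interval 6.66 to 27.4). Their 3′-UTR proportion was 39.3%, and the difference of ZNF genes from it was -22.0 points (interval -42.0 to -1.98). Introns held 37.3% at these relatives and 36.9% at ZNF genes, and the interval of the difference, -28.2 to 27.3 points, included 0. The lower intron share of ZNF genes was thus not seen against these relatives, which were only 43 gene symbols. That interval was wide and also held the -19.3 points found against other genes. It thus cannot show whether the intron shares were alike. At the solute carrier (SLC) genes, a family of membrane transporters, 39 of 297 lay in the CDS (13.1%), and the difference of ZNF genes was 21.9 points (interval 15.3 to 28.5). Introns held 53.9% of those of SLC genes, and the interval of the ZNF difference was -28.5 to -5.50 points.

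**Figure D2:**
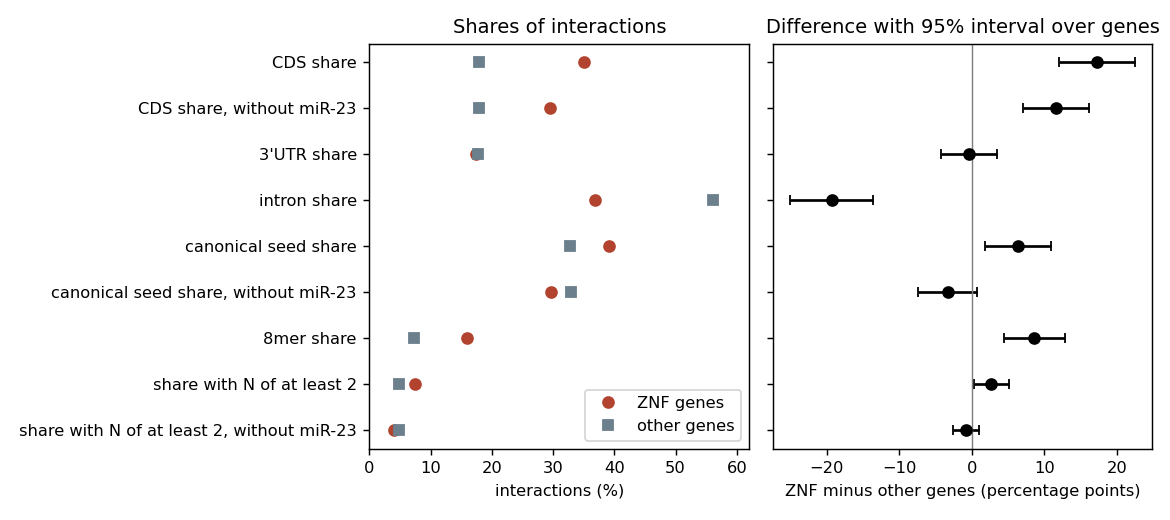
Left, share of interactions (x axis, percent) at ZNF genes and at other genes for each measure named on the y axis. Right, the difference in percentage points with its 95% interval over genes. The CDS share stays higher at ZNF genes without miR-23a-3p and miR-23b-3p, whereas the differences in canonical seed matches and in N lie below 0 without them, with intervals that include 0.

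Canonical seed matches, from the 8mer through both kinds of 7mer to the 6mer at the usual or an offset place, were more frequent at ZNF genes, and no longer so once miR-23a-3p was left out. They were found in 237 of 605 ZNF interactions (39.2%) against 32.8% at other genes, a difference of 6.35 points (interval 1.75 to 10.95). An 8mer, the longest match, was found in 96 (15.9%) against 7.24%. By contrast, 7mer-m8 matches made up 8.76% against 8.38% and 7mer-A1 matches 5.12% against 5.54%. Of the 3 regions compared, the interval of the canonical difference lay above 0 in the CDS alone. There, 98 of 212 ZNF interactions were canonical (46.2% against 31.4%, difference 14.8 points, interval 7.00 to 22.7) and 54 were 8mers (25.5% against 5.44%, difference 20.0 points, interval 12.03 to 28.03). The 8mer difference in the CDS was 12.02 points with 1 interaction per miRNA and gene (interval 6.86 to 17.2) and 65.3 points over interactions with N of at least 2 (interval 43.2 to 87.4). In 3′-UTRs 36.2% were canonical against 42.1% (interval of the difference -14.9 to 3.19 points), and in introns 28.7% against 30.8% (interval -8.14 to 4.02 points). Over all regions the canonical share was 30.7% at the ZFP, ZBTB, ZSCAN and ZKSCAN genes (interval of the ZNF difference 0.98 to 16.03 points). At SLC genes it was 39.7%, and the interval of the ZNF difference, -7.90 to 6.78 points, included 0.

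Without miR-23a-3p and miR-23b-3p the canonical share turned round. It was then 29.6% of 503 against 33.0% (interval of the difference -7.40 to 0.74 points), and in the CDS 37 of 148 (25%) against 31.6%, a difference of -6.64 points (interval -13.1 to -0.14). Of the 54 coding 8mers only 6 were left (4.05% against 5.39%). With 1 interaction counted per miRNA and gene, the canonical difference was 1.66 points overall and 5.24 points in the CDS, and both intervals included 0. Without the ZNF genes of chromosome 19 it was 3.98 points overall (interval -1.97 to 9.92) and 8.05 points in the CDS (interval -3.77 to 19.9). Over interactions with N of at least 2 it was 18.4 points (interval 3.18 to 33.6) and 31.8 points in the CDS (interval 15.5 to 48.2). Regions with no seed homology made up 11.4% of ZNF interactions against 13.5% (interval of the difference -4.49 to 0.37 points).

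Interactions supported by several reads followed the same pattern. N was at least 2 for 45 of 605 ZNF interactions (7.44%) against 4.74% at other genes, a difference of 2.69 points (interval 0.29 to 5.10). With 1 interaction per miRNA and gene it was 2.15 points (interval -0.08 to 4.39). Of these 45, 25 were with miR-23a-3p, and without the miR-23 pair the share was 3.98% against 4.75% (interval of the difference -2.54 to 1.00 points). With all miRNAs, the share was 4.67% at ZFP, ZBTB, ZSCAN and ZKSCAN genes and 5.05% at SLC genes. Both intervals of the ZNF difference included 0 (-1.11 to 6.65 and -1.06 to 5.84 points). The mean minimum free energy (MFE) of the predicted duplexes, a score in which lower values stand for stronger pairing, was -20.0 at ZNF genes and -19.8 at other genes (interval of the difference -0.62 to 0.23).

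The ZNF interactions with the most reads were not all of this type. The highest N, 11, was miR-17-5p, a member of the growth-promoting miR-17-92 cluster, in an intron of ZNF638 (chr2:71460038-71460113, hg18), with a mismatched 7mer-A1 and an MFE of -25. Next came miR-92a-3p in the 3′-UTR of ZNF703, a transcriptional corepressor, with N of 8. N of 6 was found at 4 places. These were miR-23a-3p in an unclassified exon of ZNF141, miR-23a-3p at 2 places in the CDS of ZNF92, and miR-16-5p in the 3′-UTR of ZNF91 (chr19:23333406-23333481), where miR-15a-5p and miR-15b-5p, which share its seed family, were also ligated. N of 4 was found for miR-23a-3p in the CDS of ZNF273 and for miR-194-5p in an intron of ZNF704. A further 10 interactions had N of 3, and of these the lowest MFE was that of miR-23a-3p at another place in the CDS of ZNF92, followed by miR-23a-3p in that of ZNF718. In all, miR-23a-3p made 12 of the 18 ZNF interactions with N of at least 3.

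Across miRNAs, the share of ZNF interactions was compared with that at other genes for 64 miRNAs with at least 50 interactions, by a beta-binomial score test with the gene as cluster and Benjamini-Hochberg adjustment, and 2 were called (3.12% of those tested). miR-23a-3p made 100 of 605 ZNF interactions (16.5%), at 47 genes, against 3.07% at other genes. The difference was 13.5 points (interval 9.05 to 17.9, beta-binomial score test, adjusted p = 1.49e-28). By the same test its adjusted p ranged from 4.32e-36 to 4.55e-08 over its alternatives, the highest with 1 interaction per miRNA and gene. The test widens the variance for likeness within genes by a factor of 1.15, estimated over all genes. The interval instead rests on the spread seen among ZNF genes and among other genes, so the p and the interval do not measure the same spread. miR-186-5p made 6 (0.992% against 3.12%, beta-binomial score test, adjusted p = 0.0424), a call that was lost with a minimum of 20 interactions per miRNA (adjusted p = 0.0723), with 1 interaction per miRNA and gene (0.319) and without the miR-23 pair (0.478). Over its alternatives the adjusted p of miR-186-5p ranged from 0.0408 to 0.478.

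Of the 64, no other miRNA was called. Next to miR-23a-3p came miR-17-5p with 40 interactions at 36 genes and miR-320a with 37 at 33 genes. Those of miR-92a-3p numbered 28, miR-194-5p made 26 and miR-19a-3p made 24, while miR-27a-3p had 23 and miR-26a-5p 21. The liver-specific miR-122-5p had 14, each at another gene, which was 2.31% against 3.33% (interval of the difference -2.17 to 0.13 points). miR-130a-3p, miR-16-5p and miR-374a-5p had 13 each. For miR-16-5p this was 2.15% against 3.82% (beta-binomial score test, adjusted p = 0.792), and its seed family, miR-15/16, made 23 of the 605 ZNF interactions against 5.85% elsewhere, a difference of -2.05 points (interval -4.03 to -0.07). The 10 most frequent miRNAs made 53.9% of all ZNF interactions, and 51 of the 116 miRNAs had a single one. miR-23b-3p, with the seed of miR-23a-3p, had 2 ZNF interactions among 23 at all genes, which is under the minimum of 50 for the test (0.331% against 0.0983%, interval of the difference -0.22 to 0.68 points). Reads that fitted several miRNAs had been given to a randomly chosen one, so miR-23a-3p and miR-23b-3p are not fully separated.

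In coding sequence miR-23a-3p stood apart from the other 40 miRNAs tested. Of 41 miRNAs with at least 20 coding interactions 2 were called (4.88%). miR-23a-3p made 63 of 212 coding interactions of ZNF genes (29.7%, interval 24.0 to 36.2%), at 34 of the 101 ZNF genes with any, against 108 of 3803 at other genes (2.84%). The difference was 26.9 points (interval 19.2 to 34.6, beta-binomial score test, adjusted p = 2.57e-16). It was 14.9 points with 1 interaction per miRNA and gene (interval 9.98 to 19.9) and 84.8 points over interactions with N of at least 2 (interval 70.2 to 99.3). Over alternatives the adjusted p of miR-23a-3p ranged from 3.88e-33 to 4.63e-08 (beta-binomial score test), the highest without the ZNF genes of chromosome 19. The relatives named ZFP, ZBTB, ZSCAN or ZKSCAN had 2 of 27 (7.41%), 22.3 points below ZNF genes (interval 9.75 to 34.9), and the solute carriers had 0 of 39. miR-16-5p was the other call, with 0 of 212 (a limit of 1.42%) against 5.07% (beta-binomial score test, adjusted p = 0.00119), and it was no longer called without the ZNF genes of chromosome 19 (0.165, in a range of 0.000583 to 0.165 over its alternatives). miR-181b-5p made 7 (3.30% against 1.10%), each at another gene, and missed the threshold (beta-binomial score test, adjusted p = 0.441).

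**Figure D3:**
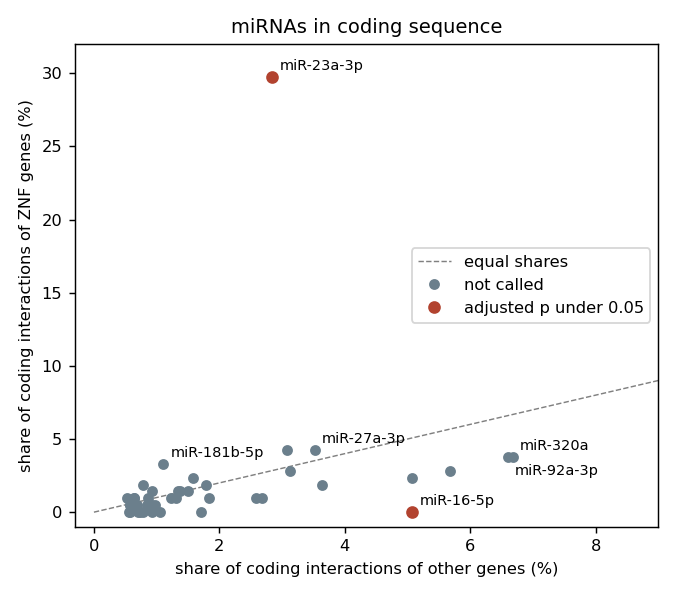
Share of coding interactions (percent) that each of 41 miRNAs made at other genes (x axis) and at ZNF genes (y axis), on unequal scales, with equal shares as a dashed line. miR-23a-3p lies at 2.84% and 29.7%, and miR-16-5p at 5.07% and 0%.

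In introns no miRNA stood out. Of 82 miRNAs with at least 20 intronic interactions 0 were called by the same test (0%), and 0 had an unadjusted p under 0.05. miR-23a-3p made 9 of 223 intronic ZNF interactions (4.04%) against 3.23% (interval of the difference -2.01 to 3.61 points), and none of the 9 was an 8mer. In 3′-UTRs it made 12 of 105 (11.4%) against 2.88%, a difference of 8.55 points (interval 1.76 to 15.3), and 8 of the 12 were 8mers. A further 8 of its interactions, at 4 genes, were labelled as both coding sequence and intron, and all 8 were 8mers.

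Of the miRNA families compared, the miR-15/16 family was rare in ZNF coding sequence with and without miR-23a-3p in the count. It made 2 of 212 coding ZNF interactions (0.943% against 7.34%), and the difference was -6.21 points (interval -8.23 to -4.18) once the miR-23 pair had been left out. The miR-17 seed family made 6.13% of them against 9.73%, the miR-320 family 3.77% against 7.18%, the miR-26 family 1.89% against 4.55% and miR-122 2.36% against 5.07%, but without the miR-23 pair the intervals of all 4 differences included 0. The miR-27 family made 4.25% against 3.79%, the miR-30 family 3.30% against 3.05% and the miR-181 family 4.25% against 2.45%, with intervals that included 0 in either case.

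Seed matches and predicted pairing of miR-23a-3p differed between ZNF genes and the rest of its targets. An 8mer match was present in 70 of 100 ZNF interactions and in 65 of 656 at other genes (9.91%), a difference of 60.1 points (interval 49.7 to 70.5). Within the CDS the shares were 47 of 63 (74.6%) and 8 of 108 (7.41%). N was at least 2 for 25 of 100 against 4.73%. Duplex class 5B of the k-means clustering, one of the pair with bipartite auxiliary pairing, held 81 of 100 against 7.62%, and 66 of 70 against 13.8% among 8mers alone. Over all ZNF interactions class 5B held 27.3% against 14.1%, and without the miR-23 pair 16.5% against 14.4% (interval of the difference -1.55 to 5.84 points). Class 5A held 6.61% against 10.95% (interval -6.31 to -2.37) and class 2 held 15.4% against 18.5% (interval -6.14 to -0.14). For classes 1, 3, 4 and 6 the intervals included 0. The classes were formed from the predicted pairing maps, so class 5B and the pairing by position given below are not separate evidence. The mean MFE of miR-23a-3p duplexes was -21.4 at ZNF genes and -18.6 at other genes, a difference of -2.72 (interval -3.49 to -1.96). Among 8mers it was -22.4 and -21.2 (interval of the difference -2.35 to -0.01).

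One core of pairing was predicted for most miR-23a-3p interactions at ZNF genes. At ZNF genes position 9 of miR-23a-3p was paired in 12 of 100 interactions, position 10 in 16 and position 11 in 14, against 63.0%, 66.5% and 71.6% at other genes. Positions 12 to 15 were paired in 88 to 97 of 100, position 16 in 18, and positions 17 to 20 in 89 to 92. At other genes, pairing at positions 17 to 20 was found in 43.9 to 59.0%. Position 18 was a G:U wobble in 51 of 100 against 12.7%. The stretches that were paired up to position 15 are in capitals here.
miR-23a-3p: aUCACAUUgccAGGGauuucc
A duplex that was paired at positions 2 to 8, open at 9 to 11 and paired at 12 to 15 was predicted for 64 of 100 ZNF interactions (interval 54.2 to 72.7%), at 32 of the 47 genes with a miR-23a-3p interaction, and for 5 of 656 at other genes (0.762%). In 40 of the 100 the whole map was identical through position 21, against 2 of 656. Of the 8 miR-23a-3p interactions at ZFP, ZBTB, ZSCAN and ZKSCAN genes, 0 had that core. The paper states that seed pairing was forced in the predictions where a seed match, also an imperfect one, was present. Pairing at positions 2 to 8 is therefore not separate evidence from the 8mer shares. The core was not compared among 8mers alone.

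**Figure D4:**
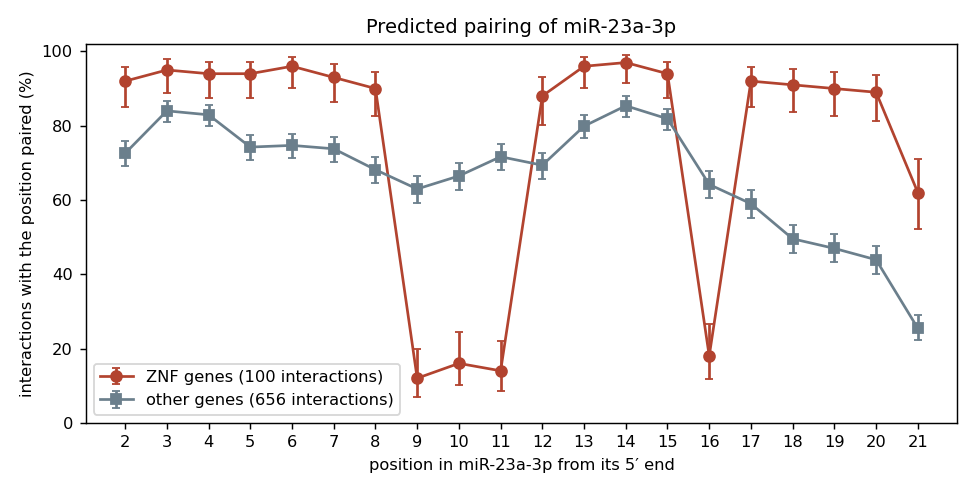
Share of miR-23a-3p interactions (percent) in which each position of the miRNA is predicted to be paired, at ZNF genes (100 interactions) and at other genes (656), with 95% Wilson intervals. At ZNF genes positions 9 to 11 and 16 are open, at 12 to 18%, while the flanking stretches are paired in 88% or more, apart from position 21 at 62%. Seed pairing was forced in the predictions where a seed match, also an imperfect one, was present.

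Most distances between miR-23a-3p matches in the coding sequence of ZNF genes fell on a raster of 84 bases. Distances were taken between the starts of all matches of the same miRNA in the CDS of 1 gene up to 3000 bases apart. Among ZNF genes 50 of 59 distances were exact multiples of 84 bases (84.7%), all 50 of them from miR-23a-3p. They came from 10 of the 15 genes that gave a distance. At other genes 0 of 58 were, which allows up to 5.17%. These were matches of other miRNAs in all but 1 case, so other genes do not show how miR-23a-3p matches are spaced there. Since match types begin at different positions of the seed, distances were also taken from the base facing position 8, an alternative chosen after seeing the data. Then 53 of 59 were exact multiples, at 13 genes, and the 3 gained, of 83, 251 and 587 bases, had been 1 base short. Without ZNF92, which gave 21 of the 59, 29 of 38 were (76.3%). Distances of 1 gene share matches, and counting only neighbouring matches gave 23 of 31.

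The 7 genes with at least 3 coding miR-23a-3p interactions, the only ZNF genes with 3 or more coding interactions of any 1 miRNA, held 28 matches, 26 of them 8mers, supported by 49 reads. Of the 21 matches after the first of their gene, 20 lay a whole multiple of 84 bases from it. The positions of the fingers themselves were not compared. ZNF92 on chromosome 7 had 7 matches between chr7:64501136-64501211 and chr7:64501961-64502036, separated by 84, 420, 84, 84, 84 and 84 bases, with N of 1, 1, 1, 1, 6, 6 and 3. Its last 5 matches thus followed each other at 84 bases. ZNF708 on chromosome 19 had 5 matches, each 252 bases from the one before, with N of 2, 1, 2, 2 and 2. ZNF626 had 4, separated by 84, 168 and 252 bases, and ZNF737 had 3, separated by 84 and 84. ZNF117 had 3, separated by 336 and 252 bases, and ZNF493 had 3, separated by 336 and 588. The exception was ZNF678 on chromosome 1, whose first pair lay 420 bases apart while an offset 6mer followed after 93, with the highest MFE of the 28, -15.1. Target regions of neighbouring matches can overlap, as in ZNF737, where the table lists them as separate interactions.

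**Figure D5:**
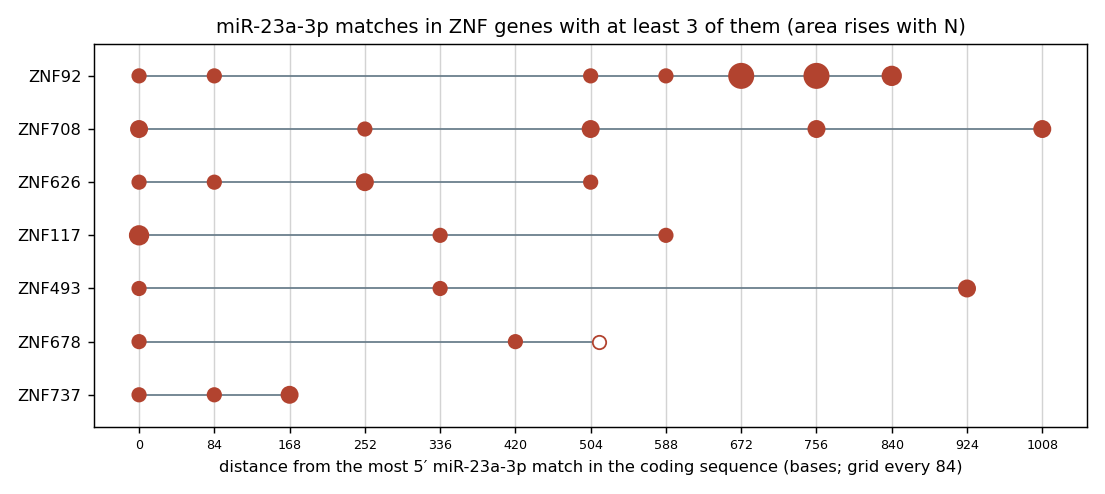
Position of each coding miR-23a-3p match (x axis, bases from the most 5′ match, grid every 84 bases) in the 7 ZNF genes with at least 3 (y axis). Filled points lie on the grid, the open point does not, and the area rises with N. The first match of each gene sets its grid, and 20 of the 21 later matches lie on it.

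ZNF genes on chromosomes 19 and 7 had a higher miR-23a-3p share than those elsewhere. miR-23a-3p made 59 of 249 ZNF interactions on chromosome 19 (23.7%), 25 of 71 on chromosome 7 (35.2%) and 16 of 285 elsewhere (5.61%). Chromosomes 19 and 7 together were 20.6 points above the rest (interval 12.9 to 28.3). In coding sequence the shares were 36 of 103, 16 of 35 and 11 of 74 (14.9%), and the difference was 22.8 points (interval 9.22 to 36.4). The split by chromosome was chosen after seeing the data, and these interactions were not spread evenly within chromosomes. On chromosome 19 most miR-23a-3p interactions lay between chr19:19863719 (ZNF253) and chr19:24102999 (ZNF254). The others there were at ZNF226, ZNF331, ZNF559-ZNF177, ZNF607 and ZNF776. On chromosome 7 most lay between chr7:63364567 (ZNF679) and chr7:64502036 (ZNF92). Elsewhere, ZNF141, ZNF595, ZNF718 and ZNF721 on chromosome 4 also had coding ones. Among the 47 ZNF genes ligated to miR-23a-3p, 19 had 1 such interaction, 15 had 2, 8 had 3, 4 had 5 and 1 had 7. Some ZNF genes are close copies of each other, and a read was kept only where it had a single place in the genome. Reads that fitted several copies equally well were thus left out, so the closest copies may be undercounted. The effect on these counts was not tested.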

How the data were processed

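The 31 libraries held RNA cross-linked to AGO in Huh-7.5 cells. Per the labels, the authors used CASAVA 1.8.2 and Bowtie with hg18, and the Bowtie version was not given in the sources used here. Chimeras were kept where the target part had a single place in the genome, duplicates from PCR were merged, and reads that fitted several miRNAs went to 1 at random. The authors deposited a single table over all libraries, with N as an unnormalized count of chimeric reads, the MFE from RNAhybrid as a deposited score with no unit named, and the seed position in each target region. Coordinates are printed as deposited, and whether they start at 0 or 1 is not stated. What the gene and region labels came from was likewise not stated. Since the table assigns no interaction to a library, depth per sample and replicate error could not be used.

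The ZNF genes, the lists and the tests were chosen with earlier results of these data known. Each interaction counted once and labels of several regions formed a region of their own. Differences in shares carry gene-clustered standard errors and normal 95% intervals without p-values. For miRNAs, the score test first planned, with an empirical clustered variance, made false calls on simulated data for rare miRNAs. It was replaced, after counts per miRNA had been seen but before that test was run on the table, by the null variance times a design effect for interactions of the same gene, with a two-sided beta-binomial tail, and p-values were adjusted over all miRNAs tested, with a threshold of 0.05. On simulated data the intervals held the true difference slightly less often than 95%. Spacing was described without a test, and a count of 0 was given a limit of 3 counts. Named were the 10 ZNF genes and 10 miRNAs with the most interactions, the 10 interactions with the highest N, genes with at least 3 coding interactions of 1 miRNA, miRNAs called, and miR-23a/b, miR-181a/b and miR-122; other names were chosen after values were seen.

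Alternatives changed the counting, the weights, the regions, the background, the miRNAs and the genes left out. Versions were scipy 1.17.1, pandas 2.3.3, statsmodels 0.14.6, numpy 2.4.6 and matplotlib 3.10.9 under Python 3.11.15. Protein sequences and target sequences were not analysed here.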

Additional observations from a re-analysis of the deposited data

How the results depend on the processing

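No paired analysis was possible because the table's columns carry no library. Leaving out each library was not run for the same reason. Of 78 values under alternatives 62 kept their call, or stayed within 1.5 times a count or within the interval of the spacing share. The CDS and intron shares kept direction and call under every alternative run for them. The intervals of the 3′-UTR share and the mean MFE included 0 throughout, and their differences changed sign, to 2.18 with labels of several regions counted for each and to 0.11 without the miR-23 pair. Differences are ZNF minus other genes, in percentage points except for the MFE.

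With 1 interaction per miRNA and gene, the canonical share differed by 1.66, that in the CDS by 5.24 and the share with N of at least 2 by 2.15, all with intervals that included 0. Without miR-23a-3p and miR-23b-3p these became -3.33, -6.64 and -0.77, the coding 8mer share -1.34 and the class 5B share 2.14. Without the ZNF genes of chromosome 19 the canonical differences were 3.98 overall and 8.05 in the CDS, with intervals that included 0. Weighting by N moved the share without seed homology to -3.01, with an interval below 0. Of the 2 miRNAs called at ZNF genes, 1 was called with a minimum of 20 interactions, 1 with 1 interaction per miRNA and gene and 0 without the miR-23 pair. Of the 2 called in the CDS, 1 was called without the miR-23 pair and 1 without chromosome 19. miR-23a-3p was called under every alternative that kept it. The alternatives without miR-23 (except those for canonical shares and MFE), without chromosome 19 and without ZNF92, the aligned spacing and that of neighbours were chosen after seeing the data. With 560 of 605 ZNF interactions resting on a single read, rare miRNAs and single genes have few reads behind them.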

Other observations

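The duplex core that marked miR-23a-3p at ZNF genes, paired at positions 2 to 8 and 12 to 15 and open at 9 to 11, was also found where the table names no gene. There it was predicted for 12 of 336 miR-23a-3p interactions (3.57%, interval 2.05 to 6.14%), and for 8 of the 20 on chromosome 19 (40.0%, interval 21.9 to 61.3%). These 8 carried 8mers and lay between chr19:20275146-20275221 and chr19:23909007-23909082 in hg18, labelled as deep intergenic or as within 10 kb downstream of a gene. At genes with other names it was predicted for 5 interactions, at ABCA11P (CDS), LOC441666 (intron), MKLN1 (3′-UTR), MTR (intron) and NFXL1 (intron), and the map at ABCA11P and LOC441666 was the one most frequent at ZNF genes.

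The 3′-UTR of ZNF91 held interactions of miR-15a-5p, miR-15b-5p and miR-16-5p within the same stretch, each with a 7mer-m8 match, with N of 3, 1 and 6. At ZNF genes, 24 interactions of other miRNAs overlapped a target region of miR-23a-3p, at 15 genes and with 20 miRNAs. None of these miRNAs had more than 2 such interactions.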
